A study of Homo sapiens with 8 samples.

Results

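The transcripts described here are those of small nucleolar RNA (snoRNA) host genes in HCT-8 colon cancer cells. The members were all genes whose symbol is SNHG followed by digits, with GAS5, ZFAS1, DANCR, EPB41L4A-AS1 and CYTOR, and with the protein-coding genes EEF1A1, EEF2, TPT1, RACK1, NAP1L4, EIF4A1, EIF4A2 and TAF15. Of 41 such symbols, 38 had 10 or more reads summed over the 8 libraries, among 64253 gene rows in all, and 30 of the 38 are non-coding and 8 coding. SNHG25 had 4 reads and SNHG27 had 0, and SNHG4 was not analysed here.

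HCT-8 is a human ileocaecal adenocarcinoma line, and HCT-8/FU is its derivative that resists 5-fluorouracil (5-FU), a pyrimidine analogue that blocks thymidylate synthesis and is built into RNA. There were 4 groups of 2 libraries of messenger RNA. The HCT-8 and HCT-8/FU groups grew in unconditioned medium. The remaining groups were both HCT-8 cells, grown in conditioned medium (CM) that had been on other cells for 48 h. The labels call them CM of HCT-8 where those were parental cells, parental CM below, and CM of HCT-8/FU where they were resistant cells, resistant CM below. All cells came from these lines, a single resistant line stood for resistance, and nothing says that the 2 libraries of a group came from separate cultures, so p-values measure only the spread between these libraries.

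snoRNAs guide the chemical modification of ribosomal RNA, box C/D members directing 2′-O-methylation and box H/ACA members directing pseudouridylation. Most human snoRNAs are cut out of the introns of a host transcript after splicing. In many non-coding hosts the intron carries the function, and the spliced exons are exported, bound by ribosomes and degraded by nonsense-mediated decay, so the steady level of the spliced host RNA reflects both its synthesis and its decay. Many hosts, like ribosomal protein genes, begin transcription at a C within a run of pyrimidines, the 5′ terminal oligopyrimidine tract, through which mTOR signalling controls the translation of their RNA.

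The start sites are shown because this shared letter pattern is the feature of host genes that the choice of members did not use. Each line holds 10 bases before the RefSeq start and 20 bases from it, read 5′ to 3′ on the gene's strand in GRCh38.p14, and capitals mark the tract, a C followed by at least 4 bases that are each C or T. The first 5 are hosts with a tract at the annotated start whose transcripts are described below, and the last 2 are hosts in which no tract was found within 10 bases.
SNHG32 (chr6:31834906-31834935, + strand): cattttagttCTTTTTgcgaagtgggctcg
SNHG5 (chr6:85678714-85678743, - strand): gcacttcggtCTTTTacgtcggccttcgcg
ZFAS1 (chr20:49278632-49278661, + strand): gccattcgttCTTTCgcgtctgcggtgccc
EEF2 (chr19:3985444-3985473, - strand): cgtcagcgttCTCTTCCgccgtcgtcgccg
RACK1 (chr5:181243887-181243916, - strand): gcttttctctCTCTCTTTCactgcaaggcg
CYTOR (chr2:87455417-87455446, + strand): atgagtcatctcgttccaatgagaatgaag
EPB41L4A-AS1 (chr5:112160516-112160545, + strand): tcatgaattctgtcgggtcccaaaatacgt

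A tract began within 10 bases of the start in 21 of the 34 members in the RefSeq promoter table (61.8%), in 57 of 67 ribosomal protein genes (85.1%) and in 33.3% of all 27305 promoters. With the tract at the start base itself, the share was 11 of 34 members (32.4%), 65.7% of the ribosomal protein genes and 4.04% of all promoters. SNHG8 and EIF4A2 illustrate how the annotated start sets the match, since the tract of SNHG8 lay 4 bases before its start (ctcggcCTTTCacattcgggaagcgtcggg, chr4:118278752-118278781, + strand) and that of EIF4A2 at it (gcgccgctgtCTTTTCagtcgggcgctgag, chr3:186783567-186783596, + strand). A match describes the letters at an annotated start, which may not be the start used in these cells.

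RefSeq places at least 1 snoRNA gene inside 34 of the 38 members, 158 in all, of which 83 lie in SNHG14, the long transcript of the Prader-Willi region. It lists none inside EEF1A1, TAF15, CYTOR and SNHG28, which are members by the rule, so that "host" below stands for a member and was not borne out for these 4 by this table. Box C/D names only were found in 14 hosts, among them SNHG1, which holds SNORD22 and the run from SNORD25 to SNORD31, and box H/ACA names only in 12, such as SNHG17 with its SNORA71 copies. GAS5, named for growth arrest, holds 11, SNORD44, SNORD47, SNORD74 to SNORD81 and SNORA103. The snoRNAs themselves were hardly read by these libraries. There were 149 rows of snoRNA genes, and 128 names among them, with the SNORD22 rows counted once, were at 0 in all 8. The others summed to 798 counts, so every value below is of the host transcript.

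Total gene counts were 5804124 to 34881349 per library. In 3 libraries, HCT-8 replicate 1, HCT-8/FU replicate 2 and parental CM replicate 1, 19.96% to 29.58% of records were not aligned, against 3.575% to 4.433% in the other 5, and results are given beside that split where it touches them. The colon epithelial markers summed to 9487 to 11840 CPM, the counts of a gene per 1000000 gene counts, the 4 fibroblast markers to 12.54 to 22.15, the 3 leukocyte markers to 0.3548 to 1.508 and the 3 endothelial markers to 1.266 to 2.448. Of these, COL1A2, PTPRC and CD3E were at 0 in every library, while COL1A1 had 8.19 to 13.81 CPM, PDGFRB 4.346 to 9.04, CD14 0.3548 to 1.508 and PECAM1 0.7899 to 1.921. The fibroblast sum was 20.49 to 22.15 in parental CM and 12.54 to 18.23 in the other groups, and its part in the results was not tested. Replicates differed by more than counting noise in each group, with a median chi-square per gene of 1.033 to 2.152 where 0.4549 would be counting noise alone. Levels are CPM with library sizes scaled by the trimmed mean of M-values, and changes are log2 ratios from edgeR's quasi-likelihood test, adjusted by Benjamini-Hochberg over all 20305 genes tested, among which were all 38 members. A gene was called differentially expressed (DE) at a false discovery rate (FDR) of at most 0.05 and a log2 change of at least 0.58 in size.

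Host transcripts, as summed counts, took a smaller share of each HCT-8/FU and each resistant CM library than of their controls. Such sums are led by the hosts with most counts over the 8 libraries. These were EEF1A1 (1689761) and EEF2 (1028557) of the coding and SNHG29 (67484) and GAS5 (41946) of the non-coding. The 30 non-coding hosts made up 0.1598% and 0.1566% of gene counts in HCT-8, 0.1213% and 0.1178% for HCT-8/FU, 0.1406% and 0.1485% in parental CM, and 0.1268% and 0.1278% in resistant CM. The 8 coding hosts made up 2.368% and 2.246%, 1.814% and 1.916%, 2.252% and 2.297%, and 1.961% and 1.954% in the same order. No HCT-8/FU or resistant CM library reached its control group in either share. In bulk RNA, fewer cells that express a gene and less of its RNA per cell cannot be told apart.

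**Figure D1:**
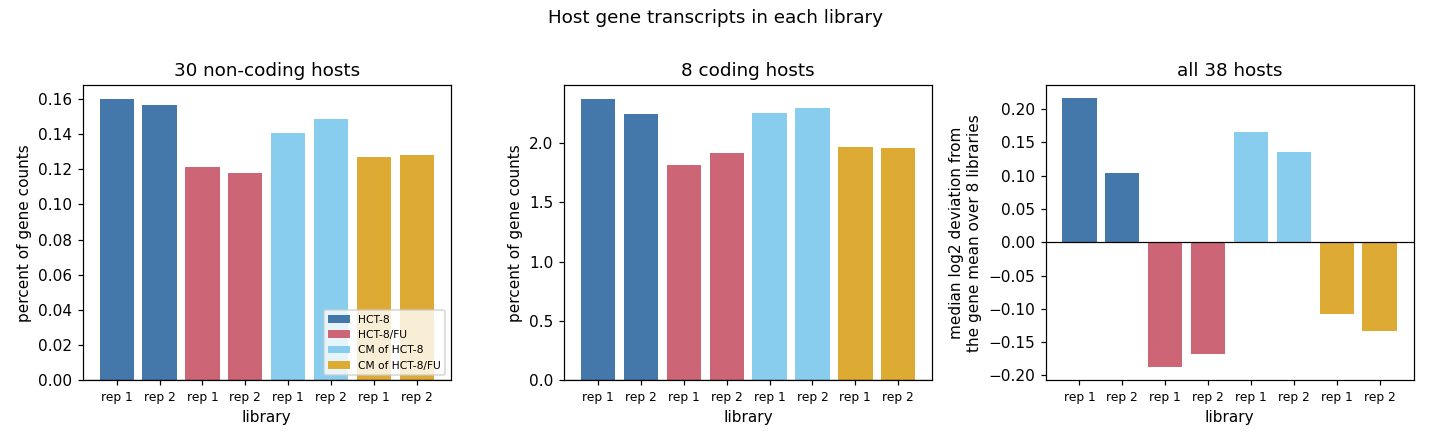
Share of gene counts (percent) taken by the 30 non-coding and the 8 coding snoRNA hosts, and the median over all 38 hosts of the log2 deviation from each gene's mean, 1 bar for each of the 8 libraries, coloured by group. The HCT-8/FU and resistant CM libraries had lower shares than HCT-8 and parental CM libraries, and all 4 of their median deviations were below 0.

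The first comparison asked how resistant HCT-8/FU cells differ from HCT-8 in unconditioned medium. Of 38 members, 11 were DE and lower (8.12% of all tested genes were) and 2, SNHG14 and SNHG31, were DE and higher (13.2% of all tested genes). SNHG31, low in HCT-8, passed the filter on low counts only through HCT-8/FU and resistant CM and gives no support. Without the fold threshold, 16 members were lower (18.1% of all genes) and 3 higher (18.6%). The groups did not overlap in 22 members with HCT-8/FU below HCT-8 (32.3% of all genes) and in 4 with it above (32.7%). The median change was -0.28 over the members and 0.01 over all tested genes. Below 0 were 28 of 38 members and 10027 of all 20305 tested genes. The 11 were 9 of the 30 non-coding hosts and 2 of the 8 coding ones, EEF2 and RACK1, which serve the ribosome.

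SNHG32, host of the box C/D snoRNAs SNORD48 and SNORD52 on chromosome 6 (31834608 to 31839766, plus strand), had the largest fall of the 11. Its level was 127.4 and 134.7 CPM in HCT-8, 70.75 and 63.51 for HCT-8/FU, 121 and 114.1 in parental CM, and 88.62 and 89.54 in resistant CM. Both HCT-8/FU libraries lay below the 6 others, a change of -0.95 ± 0.083 (SE, adjusted p = 4.923e-07 in edgeR's test).

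SNHG8, host of the H/ACA snoRNA SNORA24 on chromosome 4 (118278703 to 118285316, plus strand), was at 29.23 and 28.77 CPM in HCT-8, 15.55 and 18.22 for HCT-8/FU, 27.39 and 21.81 in parental CM, and 17.42 and 19.07 in resistant CM. The resistant cells and the cells in their medium shared the low range, and the controls the high one. Its fall in HCT-8/FU was -0.81 ± 0.14 (adjusted p = 0.0002919 in edgeR's test). Of its exon bases 37.6% lie opposite other genes, mainly PRSS12, which reached at most 0.1329 CPM.

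EPB41L4A-AS1, which holds SNORA13 on chromosome 5 (112160526 to 112164818, plus strand), stood apart by its pattern over the groups. It was at 36.34 and 32.85 CPM in HCT-8, 18.05 and 22.56 for HCT-8/FU, 18.07 and 23.05 in parental CM, and 21.62 and 21.92 in resistant CM. The unconditioned HCT-8 libraries alone were high, and the 3 other groups overlapped. The change in HCT-8/FU was -0.80 ± 0.14 (adjusted p = 0.0003511 in edgeR's test). Of its exon bases, 51.2% lie opposite other genes, mainly EPB41L4A, whose own change was -0.13 ± 0.26 at 5.151 to 8.031 CPM (adjusted p = 0.7319 in edgeR's test).

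CYTOR, a cytoplasmic long non-coding RNA on chromosome 2 (87454781 to 87636740, plus strand), had the lowest level per length of these 4, 0.568 CPM per kilobase of exon in HCT-8 against 72.77 for SNHG32, 8.058 for EPB41L4A-AS1 and 4.384 for SNHG8. CYTOR had 10.53 and 9.668 CPM in HCT-8, 6.082 and 5.85 for HCT-8/FU, 10.13 and 9.342 in parental CM, and 6.543 and 6.032 in resistant CM. Its levels fell into a high pair of groups and a low pair, with no overlap between the pairs. CYTOR fell by 0.74 on the log2 scale in HCT-8/FU (SE 0.19, adjusted p = 0.006261 in edgeR's test).

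SNHG32, SNHG8, EPB41L4A-AS1 and CYTOR were the 4 members that stayed DE in all 19 other settings and left-out libraries tried for this comparison. Among the 19, the setting without the fold threshold could not end a call, and leaving out a CM library kept every library compared. Within the pair of libraries with many records not aligned, the log2 ratio of HCT-8/FU to HCT-8 was below 0 for each of the 11 hosts that were DE and lower, from -1.004 for SNHG32 to -0.50 for SNHG1. Within the pair with few it was below 0 for each as well, from -0.93 for SNHG32 to -0.47 for SNHG15. Since HCT-8/FU and HCT-8 did not overlap for any of the 11, these signs had to follow. They are a description of sizes and no test of the alignment split.

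SNHG29, host of SNORD49A, SNORD49B and SNORD65 on chromosome 17 (16438767 to 16480249, plus strand), was at 510.8 and 468.6 CPM in HCT-8, 298.5 and 315.6 for HCT-8/FU, 462.2 and 448.3 in parental CM, and 341.8 and 334.3 in resistant CM. HCT-8/FU and resistant CM both lay below HCT-8 and parental CM, and SNHG29 fell by 0.67 in HCT-8/FU (log2, SE 0.071, adjusted p = 2.901e-06 in edgeR's test). SNHG1, host of 8 box C/D snoRNAs on chromosome 11 (62851978 to 62855953, minus strand), had 123.6 and 127.5 CPM in HCT-8 against 81.15 and 87.42 in HCT-8/FU, 92.42 and 94.77 in parental CM, and 78.42 and 80.98 in resistant CM. Only HCT-8 was above 100 CPM for SNHG1. Its change of -0.58 ± 0.079 (adjusted p = 3.122e-05 in edgeR's test) was just past the fold threshold, and -0.53 without HCT-8/FU replicate 1.

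SNHG5, host of SNORD50A and SNORD50B on chromosome 6 (85650491 to 85678932, minus strand), was at 57.66 and 47.6 CPM in HCT-8, 32.37 and 35.43 for HCT-8/FU, 40.74 and 39.55 in parental CM, and 34 and 32.79 in resistant CM. HCT-8 was again the highest group. The change was -0.63 ± 0.11 (adjusted p = 0.0003329 in edgeR's test), and it was under the fold threshold without HCT-8 replicate 1 (-0.52) and also without HCT-8/FU replicate 1 (-0.56).

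SNHG17, with 4 copies of SNORA71 on chromosome 20 (38419638 to 38435409, minus strand), had 36.86 and 36.01 CPM in HCT-8, 24.06 and 22.73 for HCT-8/FU, 31.65 and 33.3 in parental CM, and 26.78 and 25.65 in resistant CM, a change of -0.62 ± 0.11 in the resistant cells (adjusted p = 0.0002342 in edgeR's test). SNHG15, which holds SNORA9 on chromosome 7 (44983019 to 44986961, minus strand), had 29.49 and 28.32 CPM in HCT-8, 20.4 and 16.38 for HCT-8/FU, 25.67 and 28.1 in parental CM, and 23.32 and 20.89 in resistant CM. Both showed the same order of groups, with HCT-8/FU lowest and HCT-8 highest. SNHG15 changed by -0.60 ± 0.13 (adjusted p = 0.001773 in edgeR's test), or by -0.50 without HCT-8/FU replicate 2, which is under the fold threshold.

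Among the coding hosts, EEF2, the elongation factor that moves the ribosome along the message and host of SNORD37, was the one with the largest fall. Its level was 7533 and 7283 CPM in HCT-8, 4304 and 4631 for HCT-8/FU, 6533 and 6436 in parental CM, and 5455 and 5516 in resistant CM. The groups were stacked with no overlap between any 2 of them, and the change in HCT-8/FU was -0.73 ± 0.058 (adjusted p = 2.22e-07 in edgeR's test). RACK1, a scaffold protein of the small ribosomal subunit and host of SNORD95 and SNORD96A, had 1708 and 1623 CPM in HCT-8, 1067 and 1158 for HCT-8/FU, 1990 and 1674 in parental CM, and 1277 and 1279 in resistant CM. Its change was -0.58 ± 0.079 (adjusted p = 3.421e-05 in edgeR's test), and -0.56 and -0.53 without HCT-8 replicate 1 and without HCT-8/FU replicate 1.

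On the other side of the fold threshold, at the same FDR, were GAS5, ZFAS1, EEF1A1, DANCR, TPT1 and TAF15. GAS5, on chromosome 1 (173858559 to 173868882, minus strand), was at 330.7 and 295.8 CPM in HCT-8, 212.8 and 207.9 for HCT-8/FU, 255.3 and 253.1 in parental CM, and 204.4 and 209.8 in resistant CM, a change of -0.57 ± 0.074 (adjusted p = 2.052e-05 in edgeR's test). ZFAS1, host of the SNORD12 copies on chromosome 20 (49278178 to 49299600, plus strand), was at 23.17 and 19.48 CPM in HCT-8, 13.49 and 15.04 for HCT-8/FU, 18.3 and 17.93 in parental CM, and 13.73 and 13.49 in resistant CM. Its log2 change of -0.5794 lay next to the threshold of 0.58 (SE 0.14, adjusted p = 0.004695 in edgeR's test). GAS5 and ZFAS1 thus sat beside SNHG1 and RACK1 in size, and which side of the threshold each of the 4 fell on depended on the scaling and on single libraries.

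DANCR, host of SNORA26 on chromosome 4 (52712325 to 52723623, plus strand), was at 59.11 and 65.4 CPM in HCT-8, 50.58 and 50.48 for HCT-8/FU, 60.42 and 65.05 in parental CM, and 63.38 and 61.91 in resistant CM, so that HCT-8/FU alone was low (-0.31 ± 0.091, adjusted p = 0.0143 in edgeR's test). EEF1A1, which carries aminoacyl-tRNA to the ribosome, had 11590 and 10400 CPM in HCT-8, 8414 and 9248 for HCT-8/FU, 11510 and 11150 in parental CM, and 8903 and 8691 in resistant CM. TPT1, the translationally controlled tumour protein and host of SNORA31, had 3340 and 2987, 2488 and 2655, 3314 and 2985, and 2461 and 2508 CPM in the same order. In both genes parental CM overlapped HCT-8, and HCT-8/FU and resistant CM lay lower. The change in HCT-8/FU was -0.32 ± 0.065 (adjusted p = 0.00124) for EEF1A1 and -0.30 ± 0.072 (adjusted p = 0.003932 in edgeR's test) for TPT1. Reads of EEF1A1 are also shared with its processed pseudogenes, whose rows held 9.838% as many counts.

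EIF4A2, an RNA helicase of translation initiation with 5 snoRNA genes in its introns, varied little, with 703.4 and 651.9 CPM in HCT-8, 614.3 and 605.7 for HCT-8/FU, 585.5 and 604.1 in parental CM, and 571.8 and 552.8 in resistant CM (-0.15 ± 0.067, adjusted p = 0.09413 in edgeR's test). NAP1L4, a histone chaperone and host of SNORA54, had 115.6 and 104.2, 115.6 and 117.8, 106.1 and 121.6, and 107.2 and 111.4 CPM in that order, with no change past the test in any comparison. EIF4A1, the sister helicase of EIF4A2, had 7.109 and 7.628, 7.477 and 9.527, 9.092 and 10.1, and 6.511 and 7.654 CPM. Its row is uncertain, since 47.4% of its exon bases belong also to other genes on the same strand and rows of its pseudogenes held 179.8% as many counts as its own.

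TAF15, an RNA-binding protein, was the coding member that was higher in HCT-8/FU at the FDR. It was at 112.8 and 102.9 CPM in HCT-8, 139.7 and 160.5 for HCT-8/FU, 191.1 and 124.3 in parental CM, and 119.7 and 113.6 in resistant CM. The pair of parental CM libraries lay far apart, which bears on each comparison that uses them. In HCT-8/FU the change was 0.47 ± 0.15 (adjusted p = 0.01806 in edgeR's test), under the fold threshold.

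SNHG14 and SNHG31 were the 2 members DE and higher. SNHG14, on chromosome 15 (24978583 to 25420336, plus strand), had 5.529 and 4.405 CPM in HCT-8, 9.671 and 10.2 for HCT-8/FU, 7.826 and 4.52 in parental CM, and 7.634 and 8.14 in resistant CM. Its change of 1.04 ± 0.25 (adjusted p = 0.004052 in edgeR's test) was 0.81 with an adjusted p of 0.115 when HCT-8 replicate 2 was left out. SNHG31, on chromosome 2 (214810181 to 214963575, plus strand), had 0 counts in both HCT-8 libraries and 17 in the HCT-8/FU libraries together, 0.432 and 0.6686 CPM. Against a floor of 3 counts over the HCT-8 group, the level of SNHG31 in HCT-8/FU was 6.51-fold higher, a value that leaves out the counting error of the 17. In the CM groups SNHG31 had 0 and 1 counts in parental CM and 25 with resistant CM, a ratio of 14.2 (95% interval 2.33 to 583.2, counting error only). SNHG31 passed the filter on low counts only through HCT-8/FU and resistant CM, so it had to differ. Its test is no support, and it is counted among the calls as a description. The call ended without HCT-8 replicate 2, and the median over members is the same with SNHG31 at its value against the floor, which also lies above the median.

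**Figure D2:**
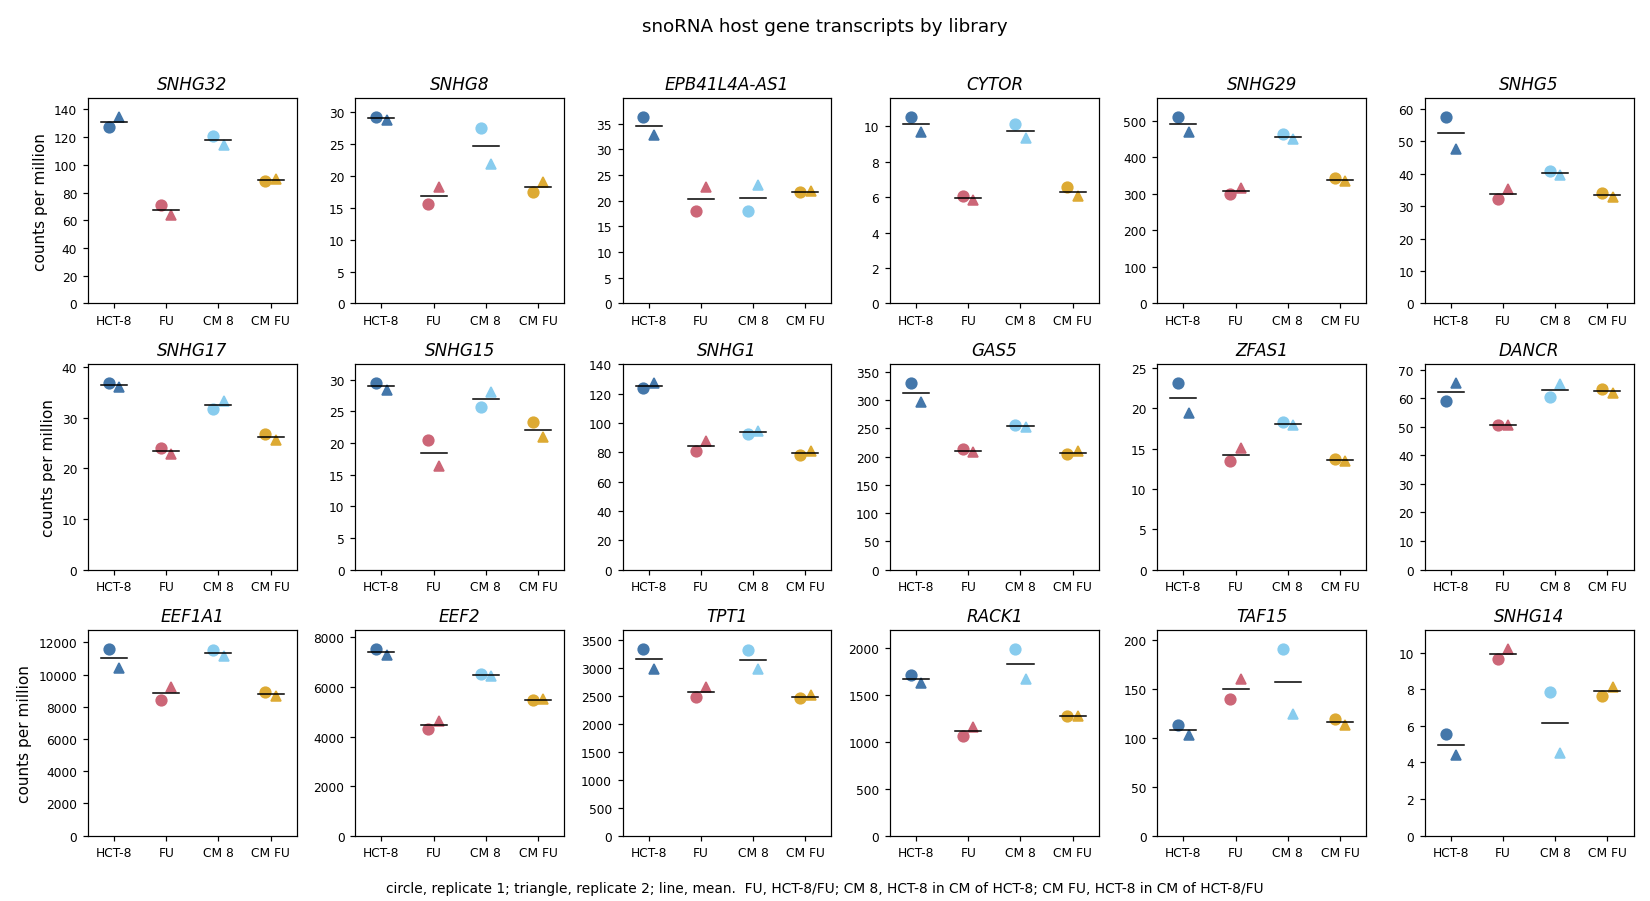
CPM of 18 host genes in each library, with a panel for each gene, the y axis from 0, a circle for replicate 1, a triangle for replicate 2 and a line for the mean of 2. SNHG32, CYTOR and EEF2 lay lower in HCT-8/FU than in HCT-8 with no overlap, EPB41L4A-AS1 was high in unconditioned HCT-8 alone, and SNHG14 was higher in HCT-8/FU.

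The other 16 hosts, SNHG3, SNHG6, SNHG7, SNHG9, SNHG10, SNHG11, SNHG12, SNHG16, SNHG18, SNHG19, SNHG20, SNHG21, SNHG22, SNHG26, SNHG28 and SNHG30, ranged from 0.06646 CPM to 100 CPM over the libraries. None of these 16 was past the FDR threshold in HCT-8/FU (changes from -0.52 to 0.44, 11 below 0, smallest adjusted p 0.0812 in edgeR's test). SNHG28 and SNHG21 share 90.8% and 72.9% of their exon bases with other genes on the same strand, and 58.9% of SNHG6 lies opposite other genes.

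The second comparison asked what medium conditioned by HCT-8/FU did to HCT-8 cells, relative to medium conditioned by HCT-8. CYTOR was the 1 member DE and lower (1.28% of all tested genes were), and 0 were DE and higher (7.97% of all tested genes). At an FDR of at most 0.05 without the fold threshold, 15 of 38 members were lower, CYTOR included (8.49% of all genes), and 0 were higher (11.2%), with 1 higher at an unadjusted p under 0.05. The groups did not overlap in 27 members with resistant CM lower (34.5% of all genes) and in 1, SNHG31, with it higher (26.9%), again by its way through the filter. The median change was -0.28 over the members and -0.06 over all tested genes. Below 0 were 32 of 38 members and 11406 of all 20305 tested genes.

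CYTOR changed by -0.62 ± 0.18 (adjusted p = 0.02155 in edgeR's test). Its call ended in 7 of the 19 other settings, of which the one without the fold threshold could not end it. Among the 7 was DESeq2 (adjusted p = 0.06241 in DESeq2's test). Leaving out HCT-8 replicate 2 (-0.56), which also changed the scaling reference, or parental CM replicate 1 (-0.57) ended it too. So did leaving out resistant CM replicate 1 (-0.68, still past the fold threshold) or resistant CM replicate 2 (-0.56).

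The 14 others past the FDR were the translation genes RACK1, EEF1A1, TPT1 and EEF2, the coding TAF15, and the non-coding SNHG29, SNHG16, ZFAS1, SNHG8, SNHG32, SNHG17, SNHG3, GAS5 and SNHG1. RACK1 changed by -0.52 ± 0.079 (adjusted p = 0.0002373), EEF1A1 by -0.36 ± 0.065 (adjusted p = 0.0009199), TPT1 by -0.34 ± 0.072 (adjusted p = 0.003224) and EEF2 by -0.24 ± 0.058 (adjusted p = 0.007841 in edgeR's test). Of the non-coding ones, SNHG29 changed by -0.43 ± 0.070 (adjusted p = 0.0004251) and SNHG32 by -0.40 ± 0.079 (adjusted p = 0.002301 in edgeR's test). SNHG16, host of the SNORD1 copies, was at 100 and 94.51 CPM in parental CM and 71.85 and 74.07 in resistant CM, a change of -0.41 ± 0.077 (adjusted p = 0.001453 in edgeR's test). EPB41L4A-AS1 (0.05 ± 0.13) and DANCR (-0.01 ± 0.087) showed no difference past the test, with overlapping groups. The 2 comparisons share no library, but they come from 1 fit, with 1 estimate of the spread and HCT-8 replicate 2 as the scaling reference. Values for each gene stand side by side in the plot of changes.

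**Figure D3:**
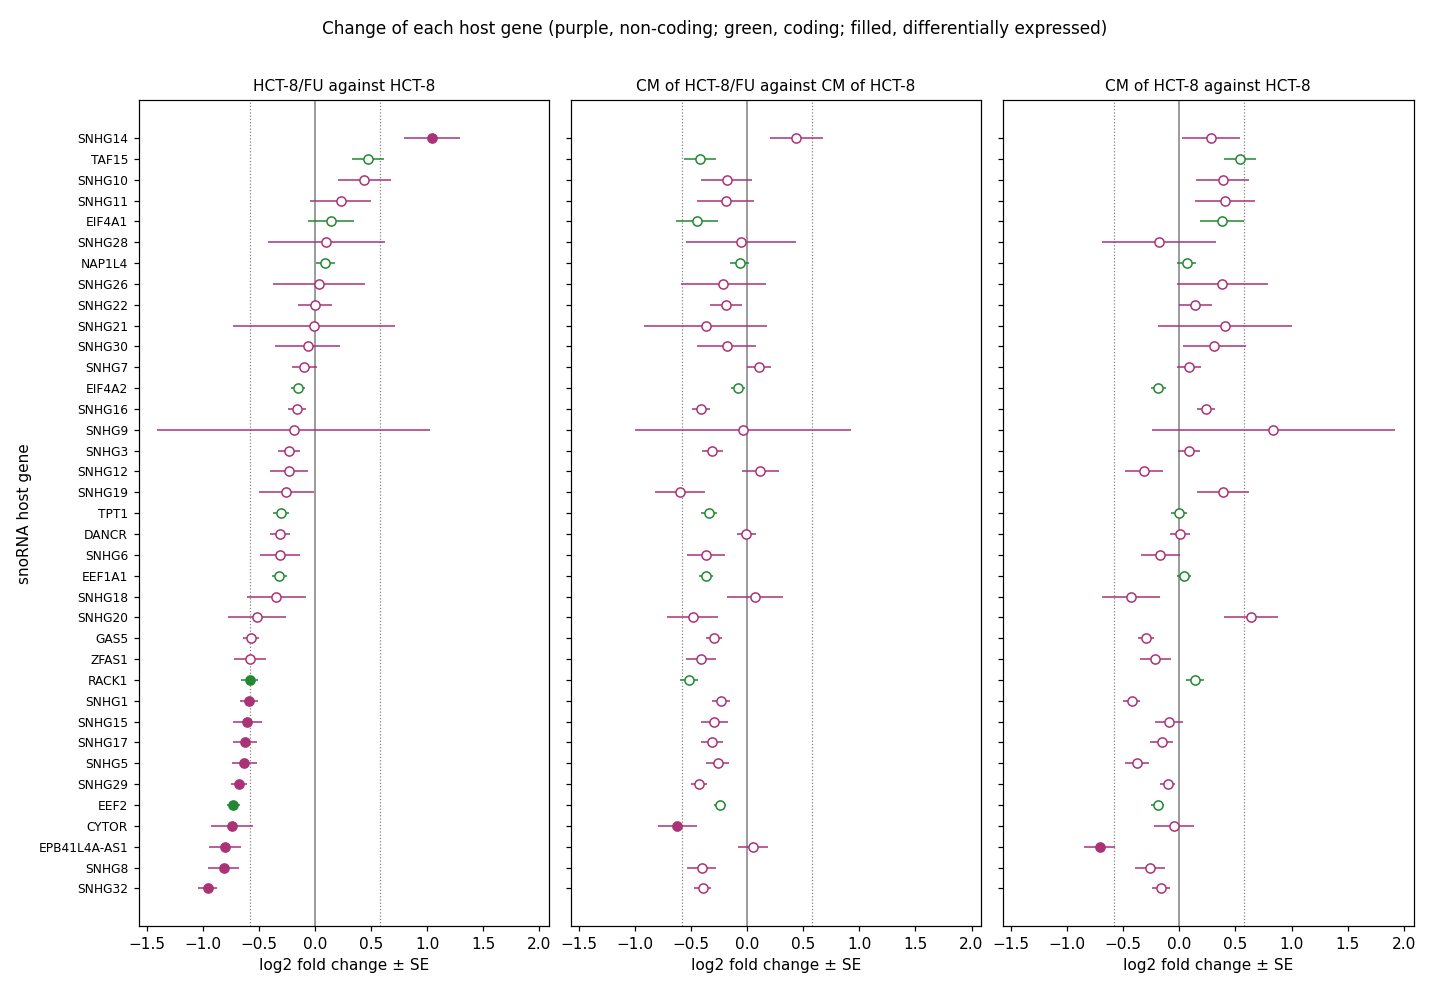
Log2 fold change ± SE of 37 host genes (SNHG31, with 0 counts in HCT-8, is left out) between lines, between media and for parental CM against HCT-8, ordered by the first. Filled points are DE, dotted lines mark 0.58 and -0.58, purple is non-coding and green coding, and most points of the first 2 panels lie left of 0 while those of the third lie on both sides.

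The third comparison set HCT-8 cells in their own conditioned medium against HCT-8 in unconditioned medium, so it shares a control group with each of the others. EPB41L4A-AS1 was the 1 member DE and lower (4.29% of all tested genes were), at -0.71 ± 0.14 (adjusted p = 0.002141 in edgeR's test), and 0 members were DE and higher (3.86%), with 3 higher at an unadjusted p under 0.05. Without parental CM replicate 1, a library with many records not aligned, the change of EPB41L4A-AS1 was -0.57, just under the fold threshold (adjusted p = 0.003887 in edgeR's test). At the FDR alone, 5 members were lower (10.4% of all genes), EPB41L4A-AS1, SNHG1 (-0.42 ± 0.078, adjusted p = 0.001359), SNHG5 (-0.37 ± 0.11, adjusted p = 0.02348), GAS5 (-0.30 ± 0.073, adjusted p = 0.009518) and EEF2 (-0.19 ± 0.058, adjusted p = 0.02929). TAF15 (0.54 ± 0.14, adjusted p = 0.01622) and SNHG16 (0.24 ± 0.079, adjusted p = 0.04717 in edgeR's test) were the 2 higher (9.04% of all genes). The groups did not overlap in 8 members with parental CM higher (27.2% of all genes) and 13 with it lower (27.1%), and the median change was 0.03 over members and 0.01 over all genes.

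Whether a host changed differently between lines than between media was tested as the difference of the first change minus the second. EPB41L4A-AS1 was the 1 member DE and lower for this difference (4.14% of all tested genes), at -0.86 ± 0.20 (adjusted p = 0.009873 in edgeR's test), and TAF15 the 1 DE and higher (3.55%), at 0.89 ± 0.20 (adjusted p = 0.009344 in edgeR's test). At the FDR alone 3 were lower (6.42% of all genes) and 1 higher (5.15%). SNHG32 (-0.56 ± 0.11, adjusted p = 0.005056) and EEF2 (-0.49 ± 0.082, adjusted p = 0.001144 in edgeR's test) passed the FDR below the fold threshold, both with the larger fall between lines. For the other 34 hosts the difference did not pass the FDR, which does not show that they changed alike. The value for TAF15 was 0.55 without parental CM replicate 1, under the fold threshold.

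Changes across all genes followed the GC content of exons, and this touches the members. The rank correlation over 19857 genes of log2 change with GC content was -0.397 for HCT-8/FU against HCT-8, -0.398 for resistant CM against parental CM and 0.301 for parental CM against HCT-8, as a description over genes that share these libraries. The median GC content was 46.4% in members and 49% in those genes. With each library corrected for a smooth trend with GC content and length, 8 members were DE and lower in HCT-8/FU (6.45% of genes) and 1, SNHG31, higher (9.24%), and 5 were DE and lower with resistant CM (1.4%). The members' median changes were then -0.33 and -0.28.

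The correction changed which hosts were called. SNHG32 (-0.82), SNHG8 (-1.26), EPB41L4A-AS1 (-0.89), CYTOR (-0.86), SNHG5 (-0.99) and SNHG1 (-0.81) were DE in HCT-8/FU with and without it, and GAS5 (-0.80) and SNHG6 (-0.76) with it alone. EEF2, with a GC content of 59.69%, moved to -0.41, and RACK1 (-0.41), SNHG29 (-0.56), SNHG17 (-0.53) and SNHG15 (-0.43) also to the lower side of the fold threshold, while each kept an adjusted p of 0.0204 or less in edgeR's test. SNHG14, with a GC content of 40.96%, moved to 0.63 (adjusted p = 0.07991 in edgeR's test). In the CM comparison the 5 were SNHG8 (-0.80), CYTOR (-0.76), TAF15 (-0.72), SNHG6 (-0.71) and SNHG5 (-0.62). Whether GC content itself or biology tied to it moves with these changes was not tested.

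**Figure D4:**
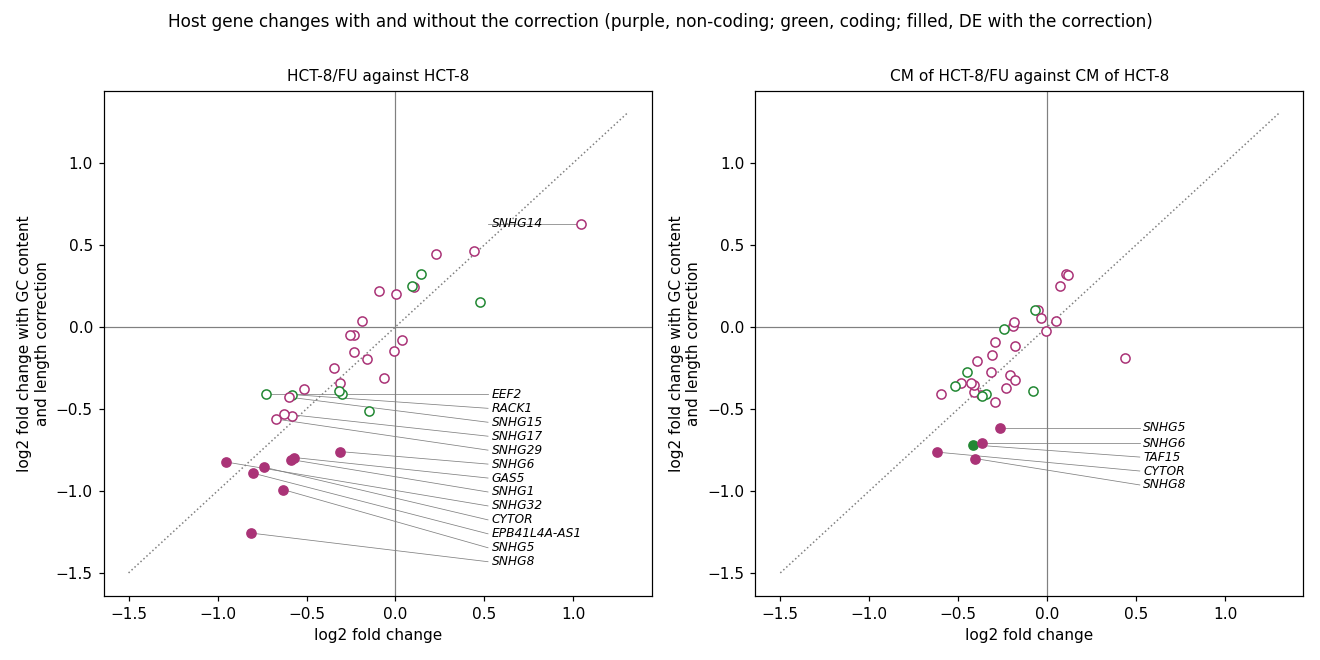
Log2 fold change of 37 host genes (SNHG31 left out) without correction (x axis) and with the GC content and length correction (y axis), for HCT-8/FU against HCT-8 and for resistant CM against parental CM. Filled points are DE with the correction, names mark genes DE in either form, and the dotted line is equality, from which SNHG8 lies below (-0.81 to -1.26 in the first panel) and EEF2 above (-0.73 to -0.41).

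The annotated start tract gave a split of the members that was described without a test. In HCT-8/FU the median change was -0.31 over the 21 members with a tract within 10 bases of the start and -0.07 over the 13 without. DE and lower were 7 of the 21 and 3 of the 13 (8.12% of all tested genes). DE and higher were 2 of the 21, SNHG14 and SNHG31 (13.2% of all tested genes), and SNHG31 gives no support by its way through the filter. The 11 with the tract at the start base, a split added after values were seen, were all below 0, from -0.95 to -0.15, and 4 were DE and lower. Of the 23 with no tract at that base, 14 were below 0 and 6 were DE and lower. Of all 20305 tested genes, 10027 were below 0. CYTOR (-0.74) and EPB41L4A-AS1 (-0.80), shown above with no tract, were among the 3 DE and lower of the 13 with none within 10 bases. In the CM comparison the medians were -0.26 over the 21 and -0.23 over the 13. SNHG15, SNHG6, SNHG9 and TAF15 were not part of this count.

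Genes that act on host transcripts and on snoRNAs were set beside them from lists. Of 84 cytosolic ribosomal protein genes tested, 4 were DE and lower in HCT-8/FU (RPL18, RPLP1, RPS27 and RPSA), against 8.12% of all tested genes, with 56 lower and 1 higher at the FDR alone (18.1% and 18.6% of all genes) and a median of -0.37. With resistant CM, 26 were DE and lower (1.28% of all genes), 70 lower at the FDR alone (8.49%), and the median was -0.45. Both medians are on the side of the hosts' own. With the GC content and length correction 7 were DE and lower in HCT-8/FU (6.45% of genes) and 22 with resistant CM (1.4%). Of the 4 named, RPSA (-0.85) stayed DE, while RPL18 (-0.43), RPLP1 (-0.49) and RPS27 (-0.52) moved under the fold threshold.

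Among 22 snoRNP proteins and assembly factors, 2 were DE and higher in HCT-8/FU (13.2% of all genes), the assembly factors RPAP3 (0.97 ± 0.20, adjusted p = 0.001107) and ZNHIT6 (0.84 ± 0.16, adjusted p = 0.0006133), and 1 lower, the ATPase RUVBL1 (-0.59 ± 0.081, adjusted p = 3.523e-05 in edgeR's test). At the FDR alone 5 were higher and 3 lower there (18.6% and 18.1% of all genes), and 3 higher and 11 lower with resistant CM (11.2% and 8.49%). The list's median was 0.11 in HCT-8/FU and -0.25 with resistant CM. With resistant CM 2 were DE and lower (1.28% of all genes). These were NOP10 of the H/ACA particle (-0.64 ± 0.20, adjusted p = 0.03408) and the scaRNA-binding WRAP53 (-0.61 ± 0.12, adjusted p = 0.00179 in edgeR's test). RPAP3 and TGS1, the cap hypermethylase, were the 2 higher (7.97% of all genes). With the GC content and length correction none of the 3 calls named in HCT-8/FU stood (RPAP3 0.39, adjusted p = 0.106, ZNHIT6 0.35, adjusted p = 0.0949, and RUVBL1 -0.42, adjusted p = 0.0005204 in edgeR's test but under the fold threshold), and TCOF1 (0.65) and SHQ1 (-0.61) were DE. With resistant CM the corrected call of NOP10 stood (-0.73) and those of RPAP3, TGS1 and WRAP53 did not, WRAP53 (-0.44, adjusted p = 0.02355 in edgeR's test) for its fold alone.

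Of 8 genes of intron debranching and snoRNA end processing, 4 were DE and higher in HCT-8/FU (13.2% of all genes). These were the 5′ exonuclease XRN1 (1.21 ± 0.093, adjusted p = 1.731e-07), the exosome nuclease DIS3 (0.93 ± 0.11, adjusted p = 1.231e-05), the exosome helicase MTREX (0.79 ± 0.095, adjusted p = 1.086e-05) and the poly(A) polymerase TENT4B (0.59 ± 0.12, adjusted p = 0.0008907 in edgeR's test). With resistant CM the first 3 were DE and higher (7.97% of all genes), XRN1 by 1.62 ± 0.098 (adjusted p = 3.88e-07 in edgeR's test). Of 10 nonsense-mediated decay factors, SMG1 (0.77 ± 0.081, adjusted p = 2.725e-06), UPF2 (0.87 ± 0.12, adjusted p = 4.262e-05) and UPF3B (0.76 ± 0.19, adjusted p = 0.004708) were DE and higher in HCT-8/FU (13.2% of all genes), and the list's median was -0.03, which turned to 0.14 with the GC content and length correction. With resistant CM, SMG1 (1.26 ± 0.082, adjusted p = 3.88e-07) and UPF2 (0.97 ± 0.12, adjusted p = 4.048e-05 in edgeR's test) were DE and higher (7.97% of all genes). That correction left XRN1 as the 1 processing gene DE and higher in each of the 2 comparisons (9.24% of genes in HCT-8/FU and 3.47% with resistant CM). At the FDR alone, 3 of the 8 were then higher and 1 lower in each, for which no share of all genes is given here. The lower ones were XRN2 in HCT-8/FU (-0.33, adjusted p = 0.002009) and PARN with resistant CM (-0.37, adjusted p = 0.02161 in edgeR's test). In HCT-8/FU it ended all 3 calls of decay factors, with SMG1 at 0.39 (adjusted p = 0.0006416), UPF2 at 0.57 (adjusted p = 0.001824) and UPF3B at 0.49 (adjusted p = 0.05788 in edgeR's test), whereas with resistant CM SMG1 (0.84) and UPF2 (0.72) stayed DE and the list's median went from -0.11 to 0.02.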

How the data were processed

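RNA was captured on poly(A) beads and sequenced as paired reads of 150 bases. Per the labels and methods, the authors aligned reads to GRCh38 with HISAT2, sorted them with SAMtools 1.18 and made the deposited raw counts per gene with HTSeq 0.11.2 on Ensembl release 94. Whether counting used strand is not stated in these sources. Rows for unassigned records (no feature, 33.68% to 49.62% of all) stayed out of library sizes. The authors' own tables of comparisons hold fold changes and p-values and were not used. Symbols, GC content and coordinates came from GENCODE 44, start sequences from RefSeq. edgeR 4.0.16 in R 4.3.3 was fitted to all 8 libraries with 4 group means (filterByExpr, glmQLFit, glmQLFTest), and DESeq2 1.42.0 was an alternative. The scaling reference was HCT-8 replicate 2, so leaving out that library also changed the reference. For resistant CM against parental CM the median change over all tested genes then went from -0.0592 to 0.0027. The test was tested on simulated data. Members and gene lists were chosen with earlier results of these data known. By rule, values in every library are given for members DE in any comparison, for GAS5, ZFAS1, DANCR, EPB41L4A-AS1, CYTOR and SNHG1, and for coding hosts. The share of start tracts at the start base, RefSeq snoRNA positions and the values of genes on the opposite strand were added after values were seen.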

Additional observations from a re-analysis of the deposited data

Results flagged for a closer look

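In 4 hosts the change between lines differed from the change between media by edgeR's test of the difference. EPB41L4A-AS1 had a difference of -0.86 (adjusted p = 0.009873), with overlapping CM groups and the lines apart. TAF15 had 0.89 (adjusted p = 0.009344), higher in HCT-8/FU but lower in resistant CM. It was 0.74 without HCT-8 replicate 2, 0.79 without HCT-8/FU replicate 2, each with an adjusted p above 0.05 (0.1275 and 0.05767), and 0.55 without parental CM replicate 1. SNHG32 had -0.56 (adjusted p = 0.005056) and EEF2 -0.49 (adjusted p = 0.001144 in edgeR's test), with falls in both comparisons and the larger between lines. EPB41L4A-AS1 was -0.67 (adjusted p = 0.08516) without HCT-8/FU replicate 1.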

How the results depend on the processing

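For HCT-8/FU against HCT-8, the count of DE members was 13, 8 with parental CM replicate 2 as scaling reference (6 lower and 2 higher, where all genes split into 1192 lower and 3166 higher instead of 1648 and 2677), and 11 to 14 when 1 library was left out. For resistant CM against parental CM it was 1, and 0 with that scaling reference (15 lower and 2 higher at an unadjusted p under 0.05), with DESeq2 (15 and 1) and with the compared groups alone (14 and 0), 5 with the GC content and length correction, also with the replicate block, 2 with a term for libraries with many records not aligned, 15 without the fold threshold, and 0 to 5 by left-out library. It was 0 without HCT-8 replicate 2 (15 lower and 1 higher at an unadjusted p under 0.05 in edgeR), without resistant CM replicate 1 (15 and 0) and without resistant CM replicate 2 (14 and 1), and 5 without parental CM replicate 2. For parental CM against HCT-8 it was 1, and 2 with the GC correction, with it and the block, and with the term for records not aligned, 7 without the fold threshold and 1 to 2 by left-out library, 2 without HCT-8 replicate 2 or parental CM replicate 2. For the difference of the changes it was 2, 4 without the fold threshold, and 1 to 4 by left-out library, 4 without HCT-8 replicate 2 and 1 without HCT-8/FU replicate 2. The replicate block alone gave 13, 1, 1 and 2. The numbers did not pair the libraries, with correlations of same-numbered deviations from -0.123 to 0.132. No called member reversed in these settings. Since the compared groups did not overlap for any member called between 2 groups, leaving out a library could hardly turn a sign. This is a description and no test. The median of the nonsense-mediated decay list changed sign with the GC correction, from -0.03 to 0.14 between lines and from -0.11 to 0.02 between media. Causes were not tested. With 2 libraries a group, changes below the fold threshold in hosts of few counts could not be resolved.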
